A study of Rattus norvegicus with 4 samples.

Results

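The mRNAs described here encode proteoglycans of the brain matrix and the proteins that hold or bind them: the lecticans versican (Vcan, formerly Cspg2), neurocan (Ncan) and brevican (Bcan), the membrane chondroitin sulphate proteoglycan neuroglycan C (Cspg5), the receptor phosphatase Ptprz1 with its secreted form phosphacan, tenascin-R (Tnr), tenascin-C (Tnc), the hyaluronan receptor Cd44 and the link protein Hapln1. The members were the probes that carried 1 of these 10 names, Cspg2 and Vcan being the same gene, or that were designed on a RefSeq transcript of them, whatever their values. This gave 14 probes for 9 genes, out of 41012 probes for 35731 names on the array. Of these, 11 probes for 8 genes were bright enough to be tested, which here means well above background in all samples of at least 1 kind of RNA, out of 24863 such probes for 21366 genes in all. Hapln1 had no probe that passed. Of the 11 tested probes, 10 were well above background on both arrays of astrocytes alone, and these covered all 8 genes, so that each was read in cultures without neurons.

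RNA was compared on 4 rat arrays with 2 colours. Astrocytes came from the cortex of Wistar rat pups at postnatal day 1 and neurons from the hippocampus of mouse embryos at embryonic day 18, so that mRNA of mouse neurons was read by probes made for rat. The RNA was of 3 kinds: co-cultures of neurons on astrocytes (CC), co-cultures whose neurons had been washed off with a stream of ice-cold buffer (cold jet, CC-CJ), and astrocytes cultured alone that received the same cold jet (AA-CJ). Cy3 carried CC-CJ on all 4 arrays, against AA-CJ in Cy5 on 2 of them and against CC in Cy5 on the other two.
The labels name no mutation and no drug in any group. RNA was pooled from several wells, and the replicates came from different pools of animals according to the study's methods, which do not state whether the same CC-CJ extracts were used on both kinds of array. Dyes were not swapped, so that in both comparisons of CC-CJ the dye and the condition cannot be told apart. CC and AA-CJ were read in the same dye, and their difference was the difference of the other two comparisons, with which it shares its arrays.

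Lecticans are large proteoglycans that bind hyaluronan at one end and tenascins at the other, and link proteins such as Hapln1 fasten them to the hyaluronan chain. Together these molecules fill the space between neural cells and condense around some neurons as perineuronal nets. Astrocytes are a well-known source of neurocan, tenascin-C and phosphacan, cells of the oligodendrocyte lineage of versican and tenascin-R, and neurons of neuroglycan C, but several of these genes are transcribed in more than one kind of cell.

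All 10 astrocyte markers were well above background in every channel, and their summed level was 36100 and 40100 intensity units in AA-CJ, 37540 and 39220 in CC, and 38160 to 40750 in CC-CJ. Gfap, the astrocyte filament protein, was not called in any of the 3 comparisons, with log2 differences between -0.34 and 0.08. The neuronal marker Mapt, which encodes the axonal protein tau, was higher in CC than in AA-CJ by 3.50 on the log2 scale (adjusted p = 0.00017, limma). Between 50.1% and 62.6% of probes were well above background per channel, and no member spot was saturated or marked as an outlier.

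In CC, 2 of the 8 members tested were higher than in AA-CJ, Vcan and Cspg5, and none was lower; the others were not called. Over all genes tested, 2.66% were called in that comparison, 2.58% higher and 0.0796% lower (limma, Benjamini-Hochberg over 21361 genes, adjusted p of at most 0.05). Both mRNAs lay between AA-CJ and CC after cold jet. The median log2 difference over the 8 members was 0.27, beside 0.0016 over all genes. In CC-CJ versus AA-CJ and CC-CJ versus CC it was 0.10 and -0.18, beside -0.016 and -0.024. No member passed in CC-CJ versus AA-CJ, where 3.1% of all genes did (1.94% higher, 1.16% lower), or in CC-CJ versus CC, where 2.36% did (0.0983% higher, 2.26% lower). At an unadjusted p under 0.05, limma gave 4 members of 8 in CC-CJ versus AA-CJ, beside 4832 of the 21361 genes. It gave 3 of 8 in CC-CJ versus CC, beside 3616 genes, and 3 of 8 in CC versus AA-CJ, beside 3797.

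**Figure D1:**
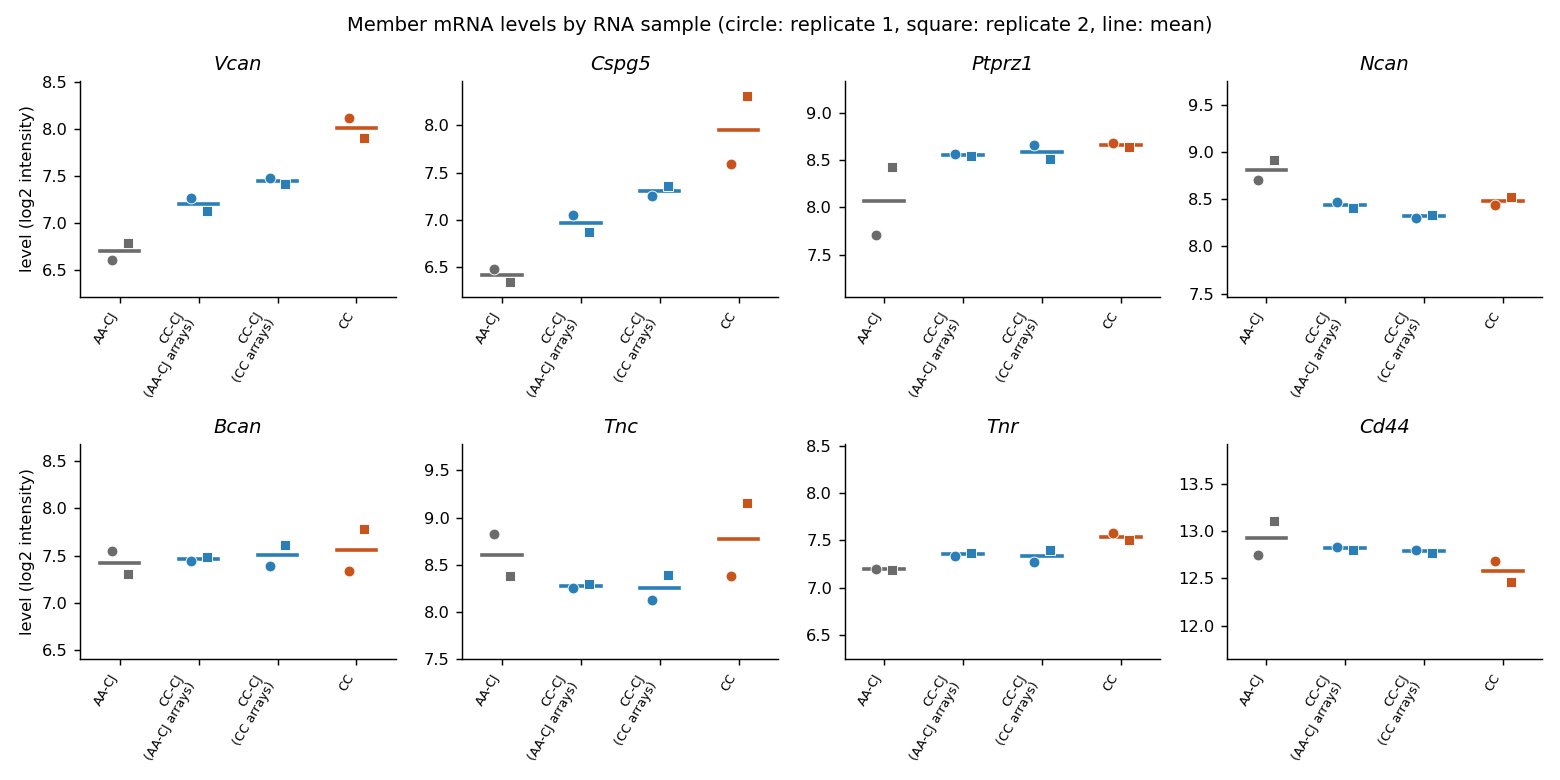
The vertical axes give the log2 level of each of the 8 tested members after normalization, all spanning the same range, for AA-CJ, CC-CJ on either kind of array, and CC; points are single RNA samples and lines are means of 2. Vcan and Cspg5 lie lowest in AA-CJ, in the middle in CC-CJ and highest in CC, with no overlap between groups. Tnr has the same order over a narrower range, whereas Bcan and Tnc overlap throughout. The share of all genes with this order was not counted.

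Versican is a large hyaluronan-binding proteoglycan of immature brain matrix. Its member probe lies on chromosome 2 from 19712731 to 19712790 (rat build rn4, minus strand, as the scanner files list it; no annotation of that build was used here to say in which exon). As scanned, with the local background taken off, the Cy5 signal of this spot was 74.8 and 79.9 units in AA-CJ and 413 and 401 units in CC. The CC spots were thus several times brighter in the same dye, and the replicates of either group lay close together. After normalization the log2 level was 6.61 and 6.79 in AA-CJ, 7.27, 7.13, 7.48 and 7.42 in CC-CJ. It was 8.12 and 7.91 in CC. Every CC-CJ sample lay above both AA-CJ samples and below both CC samples. Vcan was 2.08-fold higher in CC than in AA-CJ, a log2 difference of 1.06 (SE 0.15, 95% interval 0.71 to 1.41, adjusted p = 0.017, limma). An offset of 50 was added to every spot after background correction, which compresses the ratios of dim spots, and the size of the difference moved with this and with the normalization. It was 1.37 with median centring in place of loess (adjusted p = 0.0045, limma). With an offset of 16 it was 1.41 (adjusted p = 0.020, limma), and with Agilent's processed signals, which carry no offset, it was 2.06 but did not pass (adjusted p = 0.077, limma).

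The differences of Vcan that involve CC-CJ missed the threshold narrowly. CC-CJ minus AA-CJ was 0.66 and 0.33 on the 2 arrays, with a mean of 0.50 (95% interval 0.25 to 0.75, adjusted p = 0.058, limma). CC-CJ minus CC was -0.64 and -0.49, with a mean of -0.56 (95% interval -0.81 to -0.31, adjusted p = 0.051, limma). Both arrays of each comparison had the same sign. With the authors' processed values both differences passed, at 0.61 and -0.64 (adjusted p = 0.033 and 0.024, limma). With Agilent's processed signals neither did, at 1.17 and -0.89 (adjusted p = 0.12 and 0.19, limma). Fitted on the 2 arrays of its own comparison alone, CC-CJ versus AA-CJ stayed at 0.50 and passed (adjusted p = 0.043, limma). CC-CJ versus CC, fitted likewise, stayed at -0.56 and passed (adjusted p = 0.021, limma). With 1 array of a comparison left out, its value rests on 1 array and its spread comes from elsewhere. CC-CJ versus AA-CJ was then 0.33 or 0.66 and CC-CJ versus CC was -0.49 or -0.64, and only the 0.66 passed.
A further probe, described in the files as versican but not named so, lies on the same chromosome from 19714573 to 19714632 and was not a member. On it, CC-CJ minus AA-CJ was 0.41 and 0.46, and CC-CJ minus CC was -0.17 and -0.11. The mean of the former was 0.43 and passed (adjusted p = 0.046, limma over probes). CC minus AA-CJ was 0.57 on this probe and was not called (95% interval 0.29 to 0.85, adjusted p = 0.064, limma over probes). Its directions were those of the member probe, with smaller differences of CC from both CC-CJ and AA-CJ.

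Neuroglycan C, the product of Cspg5, spans the membrane and carries chondroitin sulphate and an EGF-like domain. Its only probe lies on chromosome 8 from 114625977 to 114626036 (rn4, plus strand). The Cy5 signal over background was 57.2 and 38.8 units in AA-CJ and 248 and 565 units in CC. The CC replicates differed from each other by more than a factor of 2, but both were well above either AA-CJ sample. The log2 level was 6.48 and 6.34 in AA-CJ, 7.05, 6.87, 7.25 and 7.35 in CC-CJ. In CC it was 7.59 and 8.31. As for Vcan, the 3 groups did not overlap, with CC-CJ in the middle. Tnr, which was not called, had the same order, and the share of all genes with this order was not counted. CC minus AA-CJ was computed through CC-CJ, so genes with a large value there tend to have CC-CJ in the middle. Cspg5 was 2.29-fold higher in CC than in AA-CJ, a log2 difference of 1.20 (SE 0.20, 95% interval 0.71 to 1.68, adjusted p = 0.035, limma), the largest difference among the members. This call was lost when either AA-CJ/CC-CJ array was left out, with adjusted p of 0.081 without the first and 0.058 without the second (limma), while the log2 difference stayed at 1.18 and 1.22. With an offset of 16 it was 1.67 (adjusted p = 0.024, limma), and with Agilent's processed signals it was 2.44 and did not pass (adjusted p = 0.079, limma).

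CC-CJ minus AA-CJ was 0.57 and 0.53 for Cspg5, with a mean of 0.55 (95% interval 0.21 to 0.89, adjusted p = 0.088, limma). CC-CJ minus CC was -0.34 and -0.96, with a mean of -0.65 (95% interval -0.99 to -0.30, adjusted p = 0.088, limma). The difference from AA-CJ was thus almost the same on both arrays, and the difference from CC was not. Fitted on the 2 AA-CJ/CC-CJ arrays alone, with both CC/CC-CJ arrays dropped, the former passed (adjusted p = 0.019, limma). Its SE was then 0.096, beside 0.14 in the main fit. With 1 array of a comparison left out, its value rests on 1 array and its spread comes from elsewhere. The former was then 0.53 or 0.57 and the latter -0.96 or -0.34, and only the -0.96 passed.
The methods used, in place of a test, limits of 2 SD around the mean of all probes on each array. For CC-CJ versus AA-CJ the upper limits were 0.47 and 0.43, which Cspg5 exceeded on both arrays and Vcan on the first array only. Cspg5 was the only one of the 8 members past them, where 1.28% of all genes were. Its difference from CC was past the lower limit on the second array (-0.55) but not on the first (-0.42), and the methods set aside mRNAs past this limit without saying whether on 1 array or on both. Read as both, as in the share of all genes above, Cspg5 is kept, and read as either it is not. The study, with its own normalization, names Cspg5 among the mRNAs it reports as upregulated in CC-CJ against AA-CJ. With the authors' processed values in the fit used here, CC-CJ minus AA-CJ was 0.77 for Cspg5 and passed (adjusted p = 0.028, limma). CC-CJ minus CC was then -0.56 and did not pass (adjusted p = 0.080, limma). With Agilent's processed signals, CC-CJ minus AA-CJ was 1.61 and did not pass (adjusted p = 0.10, limma).

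**Figure D2:**
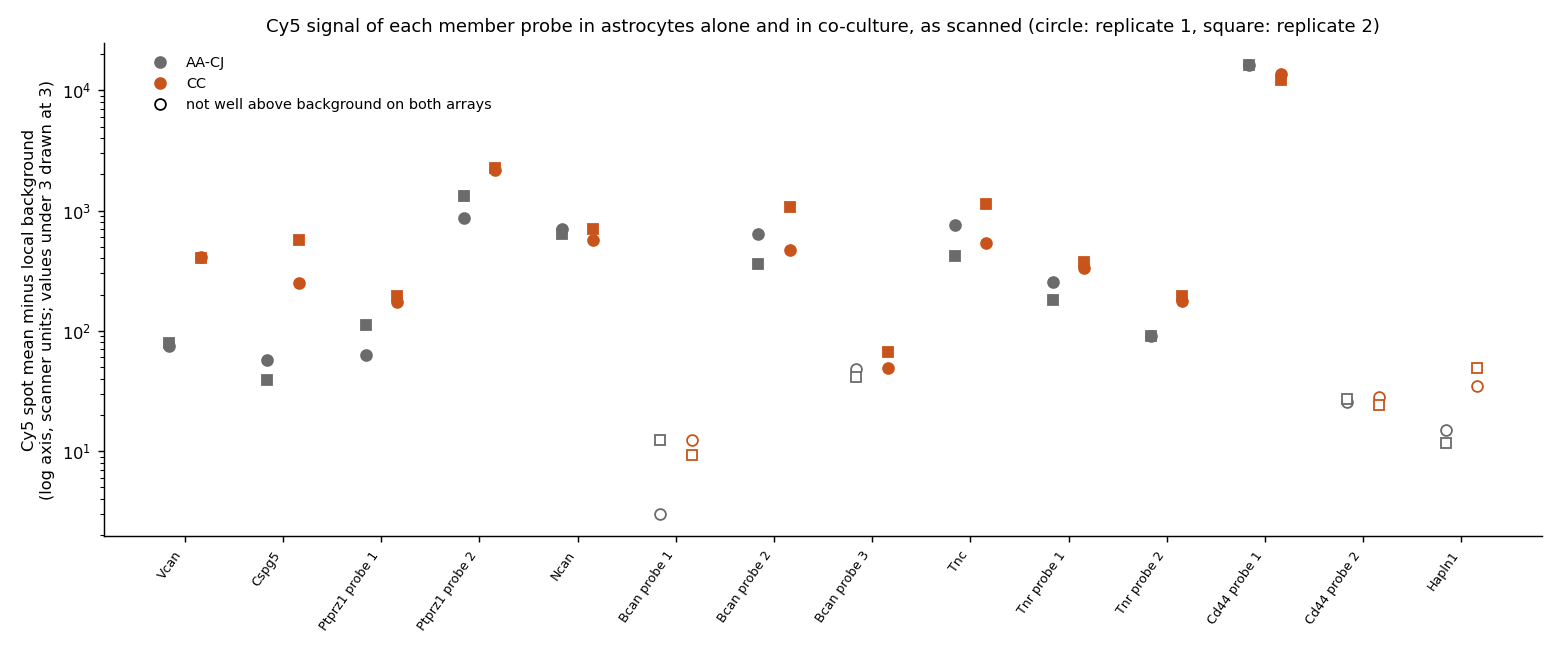
The vertical log axis gives the Cy5 signal minus local background in scanner units, before normalization, for each of the 14 member probes in AA-CJ and in CC; 1 value below 0, -2.72 for Bcan probe 1 in AA-CJ replicate 1, is drawn at 3. Circles and squares are replicates 1 and 2, and open symbols mark groups in which the probe was not well above background on both arrays. The AA-CJ and CC points are far apart for Vcan and Cspg5, and overlap for Ncan, Bcan probe 2 and Tnc.

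How much of the co-culture excess of these mRNAs stayed after cold jet was expressed as 100 times CC-CJ minus AA-CJ over CC minus AA-CJ, on linear levels and per replicate number. A value of 0% places CC-CJ at the level of astrocytes alone, and 100% at that of the whole co-culture. CC-CJ and CC were read on the same array and AA-CJ on another, so the value rests on scaling between arrays. For Vcan 45.0% and 46.6% was left, a mean of 45.8% ± 1.17 (SD, n = 2). This rests on the member probe alone. The further versican probe, which had a smaller difference between CC-CJ and CC, was not included. For Cspg5 61.2% and 34.9% was left, a mean of 48.0% ± 18.6 (SD, n = 2). The replicates of Vcan were close and those of Cspg5 wide apart.
Over the 7 neuronal markers that were also at least 2-fold higher in CC, the mean left was 11.0% ± 0.946 (SD, n = 2). Their gene means ran from 4.91% for Dcx to 19.7% for Rbfox3, so that both replicates of both members lay above every neuronal marker. The microglial markers C1qb, C1qa and Tyrobp stood at 33.7%, 38.1% and 43.2%. Sox10, of the oligodendrocyte lineage, gave 20.4% and -2.51%, and the endothelial receptor gene Kdr 95.9% as a mean. Over all 285 genes at least 2-fold higher in CC the median was 24.6%, the quartiles were 13.9% and 46.7%, and 26.7% of them were at or above Vcan. These shares are descriptions and were not tested.

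**Figure D3:**
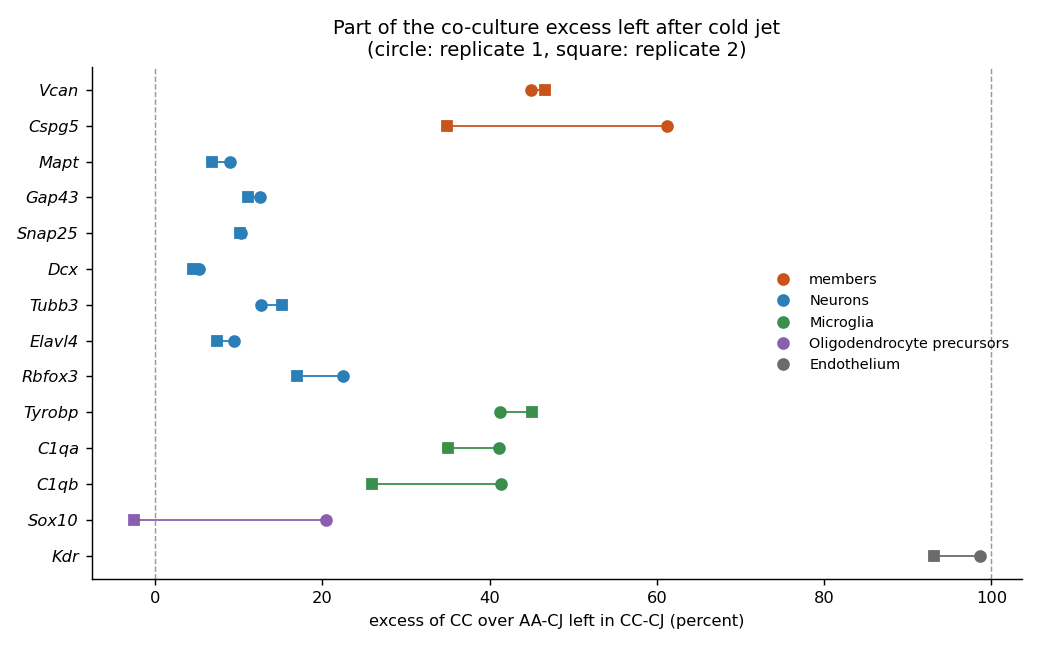
The horizontal axis gives the percent of the excess of CC over AA-CJ that was left in CC-CJ, with 0 the level of AA-CJ and 100 that of CC; each row is a gene, with a circle for replicate 1 and a square for replicate 2. Vcan (45.0% and 46.6%) and Cspg5 (61.2% and 34.9%) lie to the right of all 7 neuronal markers.

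Markers of several other cell types moved in the same direction as Vcan and Cspg5. In CC versus AA-CJ, 7 of 12 tested neuronal markers and 4 of 6 microglial markers were called higher. So were 1 of 6 oligodendrocyte, 1 of 6 fibroblast and 1 of 2 endothelial markers. Of oligodendrocyte precursors 0 of 4 markers were called, and of astrocytes 0 of 10. In that order of lists, the median log2 differences were 1.75, 1.11, 0.18, 0.32, 1.39, 0.66 and 0.09. Fewer cells of a type and less RNA per cell cannot be told apart in such bulk RNA. The summed level of the neuronal markers was 8787 and 9350 units in AA-CJ, 8339 to 8738 in CC-CJ and 19490 and 20150 in CC. That of the microglial markers was 808.5 and 924.7 in AA-CJ, 1134 to 1410 in CC-CJ and 2229 and 2259 in CC. These sums add probes of different brightness. In CC-CJ versus AA-CJ, 8 of 12 neuronal markers had a positive difference, which their sum does not show. The 4 called higher were Gap43 (log2 difference 2.03), Dcx (0.87), Mapt (0.63) and Elavl4 (0.57). Among the microglial markers, 3 of 8 on the array were well above background on both AA-CJ arrays and 6 on both CC arrays.
For the oligodendrocyte precursors, the sum was 2385 and 2900 in AA-CJ, 2259 to 2482 in CC-CJ and 2774 and 3389 in CC. Sox10 alone of these was called lower in CC-CJ than in CC (log2 difference -1.12, adjusted p = 0.034, limma). Its difference between CC and AA-CJ was 1.14 (adjusted p = 0.090, limma). Olig1, Pdgfra and Cspg4 had 0.72, 0.59 and -0.26 there, and none was called. For oligodendrocytes, fibroblasts and endothelium the sums were 881.2 to 921.8, 59210 to 62220 and 163.1 to 180.4 in AA-CJ, against 942.2 to 1063, 65220 to 67320 and 721 to 727.4 in CC. In CC-CJ they were 865 to 936.1, 56270 to 60490 and 633.5 to 728.5. The endothelial sum covers only 2 of 6 markers on the array. These were Kdr, with a log2 difference of 2.67 between CC and AA-CJ, and Cdh5, with 0.10 (not called). In CC-CJ versus CC, 8 neuronal, 4 microglial, 1 precursor, 1 oligodendrocyte and 2 fibroblast markers were lower. In CC-CJ versus AA-CJ, 2 microglial, 1 endothelial and 1 astrocyte marker were higher beside the 4 neuronal ones, the last being Aqp4, the astrocytic water channel. The part of these cells in the differences of Vcan and Cspg5 was not tested.

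Ptprz1 encodes a receptor phosphatase of glia whose shed extracellular part is phosphacan, a ligand of tenascins and contactin. Its 2 probes lie on chromosome 4, from 49418692 to 49418751 on an mRNA described as phosphacan and from 49467897 to 49467956 (rn4). The mean log2 level of both probes was 7.71 and 8.43 in AA-CJ, 8.56, 8.54, 8.67 and 8.51 in CC-CJ. It was 8.69 and 8.64 in CC. The first AA-CJ sample was the low one, and the second AA-CJ sample lay just below the CC-CJ and CC samples. The first probe gave CC-CJ minus AA-CJ of 0.61 and 0.01, and the second gave 1.1 and 0.21. Both probes thus placed the difference mainly on the first array.
Ptprz1 was not called, with 0.48 for CC-CJ versus AA-CJ (95% interval 0.09 to 0.88, adjusted p = 0.15, limma), 0.56 for CC versus AA-CJ (95% interval -0.0017 to 1.12, adjusted p = 0.28, limma) and -0.08 for CC-CJ versus CC (95% interval -0.47 to 0.32). Without the second AA-CJ/CC-CJ array, CC-CJ versus AA-CJ was 0.86 and CC versus AA-CJ was 0.93, with AA-CJ read on the first array alone. Without the first array, CC-CJ versus AA-CJ was 0.11. The value thus rested on 1 array.

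Neurocan, the lectican most typical of astrocytes in the young brain, was read by a probe on chromosome 16 from 19810549 to 19810608 (rn4), named Cspg3 in the files. Its log2 level was 8.71 and 8.91 in AA-CJ, 8.47, 8.41, 8.31 and 8.34 in CC-CJ. In CC it was 8.44 and 8.53. Both AA-CJ samples were the highest of all 8, and the CC-CJ and CC samples overlapped. CC-CJ minus AA-CJ was -0.24 and -0.51, averaging -0.37, which was not called (95% interval -0.60 to -0.15, adjusted p = 0.082, limma). In the same dye, CC minus AA-CJ was -0.21 (95% interval -0.53 to 0.11, adjusted p = 0.46, limma). CC-CJ minus CC was -0.13 and -0.19, with a mean of -0.16 (95% interval -0.39 to 0.06). Ncan had, with -0.37, the lowest value of the members in CC-CJ versus AA-CJ, where Vcan and Cspg5 had 0.50 and 0.55.

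Brevican is a lectican of the mature brain that both astrocytes and oligodendrocyte lineage cells make. Of its 3 probes on chromosome 2, those from 180073505 to 180073564 and from 180074580 to 180074639 were tested, and the one from 180072919 to 180072978, listed on the opposite strand, was not well above background on any array. The mean log2 level was 7.55 and 7.30 in AA-CJ, 7.44, 7.48, 7.39 and 7.61 in CC-CJ. It was 7.34 and 7.78 in CC. The groups overlapped fully. The differences were 0.04 for CC-CJ versus AA-CJ (95% interval -0.21 to 0.29), -0.06 for CC-CJ versus CC (-0.31 to 0.19) and 0.10 for CC versus AA-CJ (-0.26 to 0.45), and each changed sign when 1 array was left out.

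**Figure D4:**
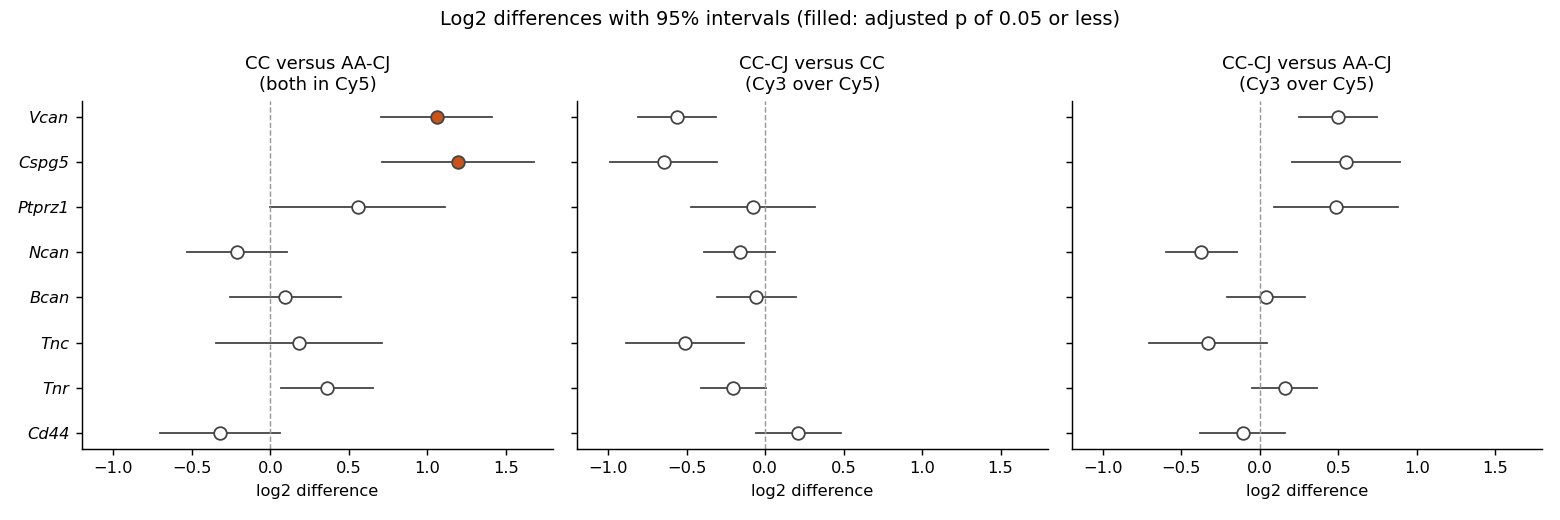
The horizontal axes give the log2 difference of each member in CC versus AA-CJ, CC-CJ versus CC and CC-CJ versus AA-CJ, with lines for 95% intervals from limma and filled points for an adjusted p of at most 0.05. Vcan (1.06) and Cspg5 (1.20) in CC versus AA-CJ are the only filled points, and in the comparisons of CC-CJ they stand on opposite sides of 0.

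The tenascins are large oligomeric glycoproteins that bind lecticans and phosphacan. Tenascin-C is a product of immature and reactive astrocytes, and tenascin-R is best known from oligodendrocytes and some neurons. The single Tnc probe has no listed position. Its log2 level was 8.83 and 8.38 in AA-CJ, 8.25, 8.29, 8.13 and 8.39 in CC-CJ. In CC it was 8.38 and 9.15. The 4 CC-CJ samples were close together, while the 2 samples of AA-CJ and of CC were each far apart. CC-CJ minus CC was -0.26 and -0.77, with a mean of -0.51 that was not called (95% interval -0.89 to -0.14, adjusted p = 0.18, limma). CC-CJ minus AA-CJ was -0.57 and -0.09, with a mean of -0.33 (95% interval -0.70 to 0.05, adjusted p = 0.27, limma). In the same dye, CC versus AA-CJ gave 0.18 (95% interval -0.35 to 0.71), and the sign turned when the second array of either kind was left out.

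Tnr was read by 2 probes on chromosome 13, from 75346038 to 75346096 and from 74773397 to 74773456, the latter listed on the strand opposite to the former. The mean log2 level was 7.20 and 7.19 in AA-CJ, 7.34, 7.37, 7.27 and 7.39 in CC-CJ. It was 7.57 and 7.50 in CC. All CC-CJ samples lay between those of AA-CJ and of CC, over a range much narrower than for Vcan. CC versus AA-CJ was 0.36 (95% interval 0.07 to 0.66, adjusted p = 0.20, limma) and did not pass. CC-CJ versus AA-CJ was 0.16 (95% interval -0.05 to 0.37) and CC-CJ versus CC was -0.20 (95% interval -0.41 to 0.0046). The probe on the opposite strand gave more of the difference from AA-CJ, with 0.25 and 0.35 per array against 0.03 and 0.01 on the other probe. Without it, CC versus AA-CJ was 0.23.

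Cd44 is the main cell-surface receptor of hyaluronan and marks astrocytes in culture. Its tested probe lies on chromosome 3 from 88023965 to 88024025 (rn4), and a further one that spans 88044582 to 88048264 was not well above background in any group. The log2 level was 12.75 and 13.10 in AA-CJ, 12.83, 12.80, 12.80 and 12.77 in CC-CJ. In CC it was 12.69 and 12.47. Both CC samples were the lowest of all 8, and AA-CJ and CC-CJ overlapped. CC versus AA-CJ was -0.32 (95% interval -0.70 to 0.06, adjusted p = 0.36, limma), the lowest value of the members in that comparison. CC-CJ versus CC was 0.21 (95% interval -0.06 to 0.48) and was the only positive one of the 8, where 43.79% of all genes were positive. CC-CJ versus AA-CJ was 0.08 and -0.30 on the 2 arrays, with a mean of -0.11.

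Hapln1, the link protein that locks lecticans to hyaluronan, was read by a probe on chromosome 2 from 19636823 to 19636882 (rn4), near that of Vcan. Its Cy5 signal over background was 14.8 and 11.7 units in AA-CJ and 34.7 and 49.0 units in CC. It was well above background in 1 CC sample only and in none of AA-CJ or CC-CJ. No fold is given and no test was made.

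By Euclidean distance over the 4 array values, the genes most like Cspg5, the member with the highest difference between CC and AA-CJ, were Hist1h2af (0.297), Fjx1, Septin3, Mllt3 and Sfxn1 among 8429 genes with a symbol. Those most like Cd44, the member with the lowest, were Arl6ip5 (0.0908), Hspb6, Ndufa10l1, Rps7 and Tgm1. The distances rest on 4 arrays of the same slide and are descriptions.

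Genes around these molecules were counted over lists. Of 13 genes of chondroitin sulphate synthesis and sulphation and of 4 lecticanases, the ADAMTS proteases that cut lecticans, none passed in any comparison at the adjusted threshold (limma), and neither did any of 7 genes of hyaluronan synthesis and turnover. Their median log2 differences in CC versus AA-CJ were 0.03, 0.22 and -0.02, in CC-CJ versus AA-CJ 0.06, 0.13 and -0.05, and in CC-CJ versus CC -0.10, -0.08 and -0.02. Of 19 receptors and ligands of the members, 2 were higher in CC than in AA-CJ. Cntn1, the neuronal adhesion protein contactin that binds tenascin-R and Ptprz1, was higher by 1.82 (adjusted p = 0.00073, limma), and Nfasc, an axonal adhesion protein that binds tenascin-R, by 0.72 (adjusted p = 0.048, limma). For Nfasc the call was lost without either AA-CJ/CC-CJ array and without the second CC/CC-CJ array (adjusted p from 0.062 to 0.19, limma). Cntn1 was lower in CC-CJ than in CC by -1.44 on the log2 scale (adjusted p = 0.00044, limma) and did not pass against AA-CJ (0.38, adjusted p = 0.068, limma), though it did with an offset of 16 (0.78, adjusted p = 0.040, limma), with the authors' processed values (0.68, adjusted p = 0.013, limma), with median centring (1.25) and with Agilent's processed signals (2.86). The medians of this list were 0.21 in CC versus AA-CJ, 0.11 in CC-CJ versus AA-CJ and -0.12 in CC-CJ versus CC.

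Of 18 other proteoglycans, link proteins and tenascins, 1 was higher in CC than in AA-CJ, 2 were lower after cold jet than in CC and 1 was lower than in AA-CJ, with medians of -0.03, -0.08 and -0.07. Decorin (Dcn), a small leucine-rich proteoglycan of connective tissue that is also on the list of fibroblast markers, was higher in CC than in AA-CJ by 0.66 (adjusted p = 0.042, limma) and lower in CC-CJ than in CC, at -0.77 (adjusted p = 0.0055, limma). Its difference between CC-CJ and AA-CJ was -0.12 (95% interval -0.31 to 0.08). The call in CC versus AA-CJ was lost with any 1 of the 4 arrays left out (adjusted p from 0.063 to 0.17, limma), and that in CC-CJ versus CC without the second CC/CC-CJ array (adjusted p = 0.064, limma). For biglycan (Bgn), the closest relative of decorin, CC-CJ was lower than AA-CJ, at -1.13 (adjusted p = 0.0054, limma), and lower than CC, at -1.09 (adjusted p = 0.0030, limma). CC and AA-CJ, which share a dye, differed for Bgn by -0.04 (95% interval -0.39 to 0.30, adjusted p = 0.90, limma). CC-CJ in Cy3 was thus below both samples in Cy5, where the dye and the cold-jet co-culture cannot be told apart. The call against AA-CJ was lost with Agilent's processed signals (-0.95, adjusted p = 0.10, limma) and with the authors' processed values (-0.65, adjusted p = 0.052, limma), and the call against CC with the former (-0.92, adjusted p = 0.097, limma).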

How the data were processed

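The authors deposited, for each of the 4 arrays, the spot intensities written by Agilent Feature Extraction 9.5.1.1, on a linear scale, as the mean of each spot and the median of its background for either dye, with flags and Agilent's processed signals. A series table deposited beside them holds the authors' processed log2 ratios, which set against the scanner values were log2 of Cy5 over Cy3; they correlated across probes at 0.90 to 0.952 with the ratios computed here and were used as an alternative, with the sign turned. Column medians of that table were between -0.0247 and 0.00847, and the study names local intensity-dependent normalization (OLIN and OSLIN) for its arrays.

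In R 4.3.3 with limma 3.58.1, signals were corrected by normexp (offset 50) and log2 of Cy3 over Cy5 was normalized by loess (span 0.3) within each array, with control spots at weight 0. Control spots and 121 to 179 outlier spots per array were left out. A probe was kept if all samples of at least 1 kind of RNA were well above background. A gene value is the mean over its kept probes. Probes with a RefSeq accession numbered 16321, of which 10835 were named through the RefSeq gene table. Levels per channel come from loess and Aquantile scaling. With lmFit and eBayes, each kind of array had its own coefficient, with 2 residual and 4.71 prior degrees of freedom, and the difference of both gave CC versus AA-CJ. Adjusted p-values are Benjamini-Hochberg over 21361 genes, since genes without a value on every array were not fitted. With 2 arrays per comparison, their number limits the precision. The p-values rest on a spread shared over both kinds of array and drawn towards that of all genes. The replicates came from different pools of animals, but whether CC-CJ extracts were shared between the kinds of array is not stated. With an array left out, its comparison rests on 1 array, and the spread comes from the other kind of array and from all genes. Bounds against a dim group use the lowest signal well above background on each array. All arrays were on 1 slide with 1 scan. The steps were tested on simulated data.

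Members and lists were chosen with earlier results of these data known. Named are all members, genes of the other matrix lists that passed (at most 4 per list and comparison), Gfap, Mapt and markers a result turns on, and the 5 nearest genes to each of the members at either end. Other probes of versican, Cd44 and the link protein were found by their description after the values were seen. Of all list genes, 13 had no probe. Alternatives covered background correction, offset, normalization, source of the values, filter, arrays in the fit, prior, probes per gene, replicate block and each array left out. No probe sequence and no mouse genome was used here.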

Additional observations from a re-analysis of the deposited data

Results flagged for a closer look

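A signal was found in a probe outside the comparisons of the members. A probe described in the files as link protein, on chromosome 2 from 19638472 to 19638531 (rn4), does not carry the name Hapln1 and was not a member. It was well above background on both CC arrays and on neither AA-CJ array. A bound from levels compared between arrays put CC at least 1.44-fold above AA-CJ. The fit on ratios within arrays did not bear this out. There the log2 difference between CC and AA-CJ was 0.14 and was not called (SE 0.14, adjusted p = 0.65, limma over probes). That fit runs through CC-CJ, where the probe was well above background in 1 sample only. The size of the difference was thus not settled. Its Cy5 signal over background was 31.6 and 18.6 units in AA-CJ and 79.6 and 115 units in CC.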

How the results depend on the processing

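Over 424 values of members under the alternatives, 371 kept their direction and side of the threshold, 7 lost a call, 36 gained one and 10 turned. The higher level of Cspg5 in CC than in AA-CJ lost its call with Agilent's processed signals, without background correction, without either AA-CJ/CC-CJ array and with a replicate block, and that of Vcan with Agilent's processed signals and the block. The direction held and the cause was not tested. With median centring in place of loess, Bcan and Cd44 turned in CC-CJ versus CC (0.17 and -0.45) and Bcan in CC versus AA-CJ (-0.0045), and the median of all genes in CC versus AA-CJ moved to -0.14. With an array left out, values turned within their ranges for Bcan (-0.10 to 0.18 in CC-CJ versus AA-CJ, -0.17 to 0.059 in CC-CJ versus CC, -0.045 to 0.24 in CC versus AA-CJ), Cd44 (-0.30 to 0.083 in CC-CJ versus AA-CJ) and Tnc (-0.072 to 0.44 in CC versus AA-CJ), each without the second array of a kind. Bgn turned in CC versus AA-CJ with the authors' values (0.086) and ran from -0.16 to 0.076 with an array left out. With Agilent's signals Dcn lost both of its calls and Nfasc its own. Calls of Cntn1 in CC versus AA-CJ and CC-CJ versus CC held in all settings that tested them. Its probe was not well above background in all channels, so the setting with that filter did not test it.

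Members called in CC versus AA-CJ, 2 here, were 0 with Agilent's signals and 1 without background correction. Those called in CC-CJ versus AA-CJ, 0 here, were 6 with median centring, 2 with the authors' values and with the arrays of the comparison alone, 1 with probes found by description and 1 by the limits of the methods. Those in CC-CJ versus CC, 0 here, were 5 with median centring and 1 without background correction, with the authors' values, without the filter, with the arrays of the comparison alone, with an intensity trend and with the brightest probe. With an array left out, the counts ran from 0 to 2 in CC-CJ versus AA-CJ, 0 to 1 in CC-CJ versus CC and 1 to 2 in CC versus AA-CJ.

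Over all genes, 662, 504 and 568 called in CC-CJ versus AA-CJ, CC-CJ versus CC and CC versus AA-CJ became 77, 278 and 250 with Agilent's signals and 14254, 14624 and 952 with median centring. They became 336 in the first with an offset of 16, 1123 in the first with its arrays alone, and 290 and 348 in the others with probes well above background in all channels. With an array left out they ran from 122 to 1121, 204 to 688 and 352 to 653. Over the other matrix lists, 1, 3 and 3 called became 1 in each of the last pair with Agilent's signals, 45 and 46 in the first pair with median centring, 0 in the last with all channels above background, and in the first 2 with an offset of 16, with the authors' values, without the filter, with all channels above background and with its arrays alone, and 3 with the brightest probe. The genes behind a like count could differ. In CC-CJ versus AA-CJ the 1 call with Agilent's signals was Cntn1, higher, in place of Bgn, lower. The 2 calls with the authors' values did not include Bgn either. With an array left out the counts of these lists ran from 1 to 2, 2 to 3 and 1 to 2.

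The share left after cold jet was 36.8% for Vcan and 5.68% for neuronal markers with levels from ratios within arrays, 67.8% and 20.7% without taking off AA-CJ, 40.2% and 6.73% with Agilent's signals, and 43.3% and 10.0% without background correction. For Cspg5 it was 40.0%, 65.4%, 52.0% and 48.5%.

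With the replicate number as a block, members called were 0 in CC versus AA-CJ, genes called were 170, 306 and 294, and other matrix genes called in CC versus AA-CJ were 1. The numbers do not pair the samples by any label, and the differences between replicates of both kinds of array correlated at -0.11 over probes. With crossed numbers as the block, chosen after seeing the data, members called were 2, 3 and 2, genes called 1492, 849 and 828, and other matrix genes 2, 3 and 5.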
